A study of Homo sapiens with 17 samples.

Results

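Small nucleolar RNA host genes are long noncoding genes that carry small nucleolar RNAs (snoRNAs) in their introns. The members were the genes of the RefSeq table for GRCh38.p14 with the symbol SNHG and a number, without an antisense or pseudogene suffix, together with GAS5 and ZFAS1. This gave 31 genes of the 38340 protein-coding and long noncoding RNA (lncRNA) genes of chromosomes 1 to 22, X and Y. Protein-coding genes made up 20037 of these, and other lncRNA genes 18272. Members were picked by symbol alone. No measured value entered the rule, but it was set with earlier results of these data known.

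The data were 17 CUT&Tag libraries of H1 cells, an established human pluripotent cell line. In this assay an antibody on chromatin brings the transposase Tn5 to the site, where it cuts and tags the DNA. For H3K4me1 and for H3K27ac there were 4 libraries of cells given 1 of 2 shRNAs against HNRNPU (shHNRNPU#1 and shHNRNPU#2, 2 repeats each) and 2 libraries of cells given an shRNA against luciferase (shLUC), all with viral delivery and puromycin selection. HNRNPU, a nuclear RNA-binding protein, was profiled in 2 libraries of cells labelled as having no shRNA. The antibody named POLIIS2P, a name that the labels do not define, was used in 1 shHNRNPU#1 library and 2 shLUC libraries. The antibodies listed in the protocol include neither H3K4me1 nor POLIIS2P, so these names rest on the titles. No label says that repeats came from separate cultures, so a p-value measures the spread between libraries, which may be technical. None of these assays measures how far HNRNPU was lowered. At the HNRNPU gene itself, the best POLIIS2P summit had a score percentile of 99.69 with shHNRNPU#1 and of 99.51 and 99.49 with shLUC.

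A snoRNA guides the chemical modification of ribosomal and other RNAs. Box C/D snoRNAs (SNORD genes) direct 2′-O-methylation, box H/ACA snoRNAs (SNORA genes) direct pseudouridylation, and the related SCARNA genes give the guide RNAs of Cajal bodies. In mammals most snoRNAs are cut from the introns of a host transcript after splicing, and many host genes, coding and noncoding, begin transcription at a run of pyrimidines, as ribosomal protein genes do. The exons of several noncoding hosts, GAS5 among them, are known for rapid turnover when they are translated.

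By the same annotation, 30 of the 31 members held at least 1 snoRNA gene within their bounds, SNHG27 being the exception. The members together held 152 snoRNA genes, 121 of them SNORD, 22 SNORA and 4 SCARNA. SNHG14, the imprinted 596 kb host of the SNORD116 and SNORD115 arrays, accounted for 84 of these. GAS5 held 10 SNORD genes and 1 SNORA gene, and SNHG1 held 8 SNORD genes among 9 snoRNA genes. Members were short, with a median of 5145 bp against 14880 bp over all genes, and 22 were under 10000 bp. A protein-coding gene reached into the window of 24 members, the gene with 1000 bp on each side. A summit there cannot be assigned to the host rather than to its neighbour.

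The promoters of 6 members are shown because of the pyrimidine run at their starts. ZFAS1, SNHG29, SNHG31 and SNHG5 are among the members with the highest HNRNPU values, SNHG1 lies in the middle of that order, and SNHG12 had no HNRNPU summit. RefSeq promoter sequences of 300 bases, 250 before and 50 after the start, were found for 27 members and not for SNHG6, SNHG9, SNHG15 and SNHG25. The sequences run 5′ to 3′ on the gene's strand, in GRCh38.p14 coordinates. Capitals mark the longest run of C and T that touches the 5 bases on either side of the start, where it has at least 6 bases.
ZFAS1, chr20:49278392-49278691, plus strand: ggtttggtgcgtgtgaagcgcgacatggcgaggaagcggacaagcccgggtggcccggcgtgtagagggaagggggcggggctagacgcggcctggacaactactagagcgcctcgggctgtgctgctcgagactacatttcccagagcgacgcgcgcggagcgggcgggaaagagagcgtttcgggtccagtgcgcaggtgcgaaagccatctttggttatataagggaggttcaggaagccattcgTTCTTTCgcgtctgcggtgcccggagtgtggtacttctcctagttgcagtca
SNHG29, chr17:16438737-16439036, plus strand: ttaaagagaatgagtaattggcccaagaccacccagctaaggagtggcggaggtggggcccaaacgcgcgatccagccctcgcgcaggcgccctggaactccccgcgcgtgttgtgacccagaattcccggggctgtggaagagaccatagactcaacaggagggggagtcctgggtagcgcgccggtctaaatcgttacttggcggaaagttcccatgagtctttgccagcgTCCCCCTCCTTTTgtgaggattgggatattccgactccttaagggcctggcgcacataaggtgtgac
SNHG31, chr2:214809979-214810278, plus strand: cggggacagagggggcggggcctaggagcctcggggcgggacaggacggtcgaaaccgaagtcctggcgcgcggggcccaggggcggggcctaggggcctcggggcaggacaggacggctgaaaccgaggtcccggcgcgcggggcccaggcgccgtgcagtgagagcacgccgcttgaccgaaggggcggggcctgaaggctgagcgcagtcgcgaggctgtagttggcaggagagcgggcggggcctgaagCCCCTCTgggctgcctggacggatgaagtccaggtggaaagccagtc
SNHG5, chr6:85678684-85678983, minus strand: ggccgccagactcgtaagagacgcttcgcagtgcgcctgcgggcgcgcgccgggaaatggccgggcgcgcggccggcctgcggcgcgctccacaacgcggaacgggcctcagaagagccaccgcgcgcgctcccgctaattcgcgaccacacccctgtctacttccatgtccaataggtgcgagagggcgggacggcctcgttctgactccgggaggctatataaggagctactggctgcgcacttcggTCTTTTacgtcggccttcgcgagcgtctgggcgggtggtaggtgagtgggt
SNHG1, chr11:62855836-62856135, minus strand: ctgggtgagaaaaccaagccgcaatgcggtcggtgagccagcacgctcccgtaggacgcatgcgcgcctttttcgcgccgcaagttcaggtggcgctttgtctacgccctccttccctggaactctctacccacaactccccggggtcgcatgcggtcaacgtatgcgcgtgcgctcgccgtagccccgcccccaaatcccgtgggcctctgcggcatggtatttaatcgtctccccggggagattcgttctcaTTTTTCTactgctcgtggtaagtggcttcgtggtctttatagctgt
SNHG12, chr1:28581824-28582123, minus strand: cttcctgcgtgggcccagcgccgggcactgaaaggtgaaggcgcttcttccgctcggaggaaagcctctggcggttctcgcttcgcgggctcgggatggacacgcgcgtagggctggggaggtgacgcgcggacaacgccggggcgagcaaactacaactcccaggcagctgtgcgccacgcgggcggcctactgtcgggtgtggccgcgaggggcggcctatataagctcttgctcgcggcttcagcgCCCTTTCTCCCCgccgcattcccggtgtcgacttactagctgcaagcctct
Among these 6, the run is longest in SNHG29, at 13 bases, and SNHG12, at 12 bases. It has 7 bases in ZFAS1, SNHG31 and SNHG1 and 6 in SNHG5. The runs of GAS5, with 3 bases, and of SNHG20, SNHG11 and SNHG27, with 2 each, were shorter.

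Such a run of at least 6 pyrimidines was present in 17 of the 27 members' promoters (63.0%), against 22.8% of 27305 promoters, 23.3% of those of other lncRNA genes and 22.3% of those of protein-coding genes. In 37 protein-coding snoRNA hosts, a list of ribosomal protein, translation factor and other genes, it was present in 19 (51.4%). The median run was 6 bases in members and 4 in all promoters. No test of these shares was made. The run has a known place in host genes, but it was chosen after its values were seen. Members' promoters also had more CpG pairs than most, with a median of 25 against 14 over all promoters, 5 in other lncRNA genes, 22 in protein-coding genes and 26 in the protein-coding hosts. Their median GC content was 62.3% against 58.3% over all promoters, 49.7% in other lncRNA genes, 62.7% in protein-coding genes and 61.0% in the protein-coding hosts.

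Short motifs were counted on both strands of the same 300 bases. The Sp1-type box GGGCGG occurred in 19 of 27 members' promoters (70.4%), in 44.6% of all and in 64.9% of the protein-coding hosts. GCGCATG occurred in 4 members (14.8%), 4.67% of all and 10.8% of those hosts, and CTCGCGA in 3 members (11.1%), 2.35% of all and 18.9% of those hosts. CACGTG was in 2 members (7.41%, 7.43% of all), CCGGAAG in 2 (7.41%, 10.7% of all), CCAAT in 8 (29.6%, 35.7% of all), TATAAA in 4 (14.8%, 12.0% of all) and AAGATGG in 2 (7.41%, 6.06% of all). A match describes letters and not a binding site.

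Each deposited list gives the summit, the base of highest signal, of every called peak with a score, taken to be the −log10 of its significance. For each gene the best summit was the highest-scoring one within the gene or 1000 bp of it. Its score percentile is the share of the library's own list that scores lower, so 100 is the top of the list and a gene without a summit was set to 0. Lists held 34649 to 214333 summits, and read depth was unknown. A percentile compares a gene with the other sites of the same library and is no level per length, and a long gene has more chances of a high summit. In the 17 libraries 21 to 28 members had a summit. H1 cells were checked with markers fixed by name. A POLIIS2P summit in all 3 libraries was found at 11 of 12 pluripotency markers, POU5F1 being the exception. It was found at 12 of 19 markers of other lineages (63.2%) and at 47.4% of all genes. Within the top 10% of the list in each were 5 of 12, 1 of 19 and 14.5% of all genes. In the 4 histone libraries of shLUC cells the antibody of the title is not the one that the peak names carry, H3K4me1 standing for H3K27ac and the reverse. Groups follow the titles, and every histone result is given as titled and with these names exchanged. No copies were found, since repeats shared 2.15% to 8.70% of summit bases.

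**Figure D1:**
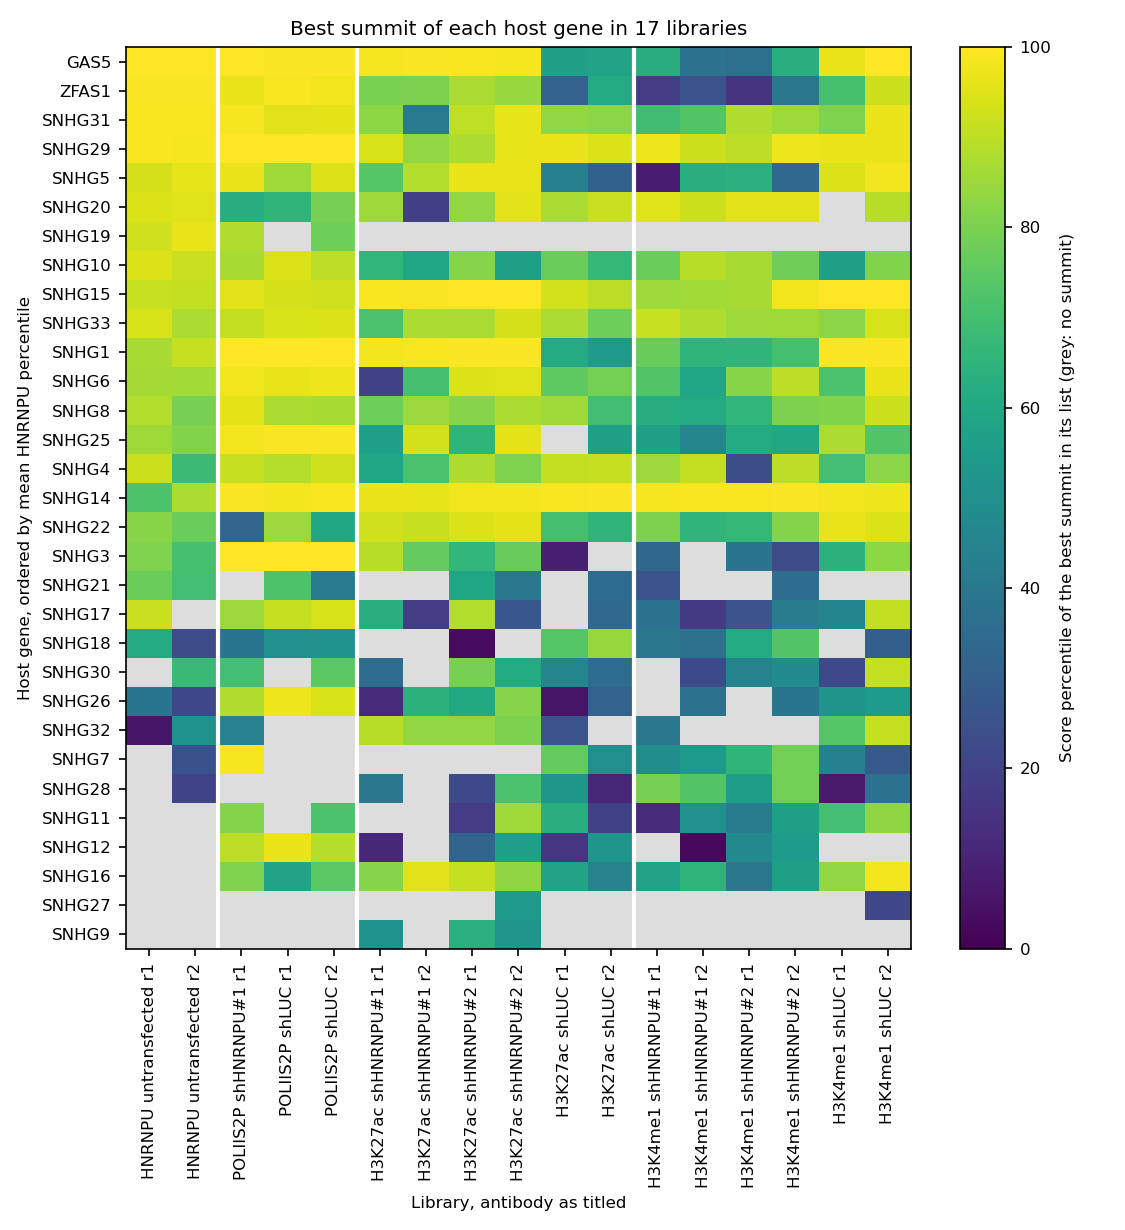
Score percentile (colour, 0 to 100) of the best summit of each of the 31 host genes (vertical axis, ordered by mean HNRNPU percentile) in each of the 17 libraries (horizontal axis, antibodies as titled), with grey for no summit. GAS5 is near 100 in all HNRNPU and POLIIS2P libraries, and the columns titled shLUC of each histone mark resemble the shHNRNPU columns of the other mark.

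HNRNPU summits in both repeats were found at 22 of 31 members (71.0%), against 44.2% of all genes, 22.8% of other lncRNA genes and 63.7% of protein-coding genes. The best summit was in the top 10% of the list in both repeats at 9 members (29.0%), against 8.68% of all genes and 3.56% of other lncRNA genes. Among genes of 2001 to 10000 bp, the length of most members, 11 of 16 members (68.8%) and 28.0% of all genes had a summit in both repeats. No test of these shares was made. A list of HNRNPU intervals for the whole series had an interval at 26 members and none at SNHG9, SNHG11, SNHG12, SNHG16 and SNHG27, the same 5 that lacked a summit in either repeat. SNHG17 had one in the first repeat only, and SNHG7, SNHG28 and SNHG30 in the second only.

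GAS5, whose transcript carries the largest set of snoRNAs after SNHG14, had the highest HNRNPU percentile of all members, 99.98 in the first repeat and 99.99 in the second. Both repeats placed the summit at the same base, 173868299 of chromosome 1, which is 746 bp downstream of the annotated GAS5 start. The same base lies 81 bp upstream of the start of ZBTB37, a zinc finger gene on the opposite strand, and the sequence is shown because 1 summit there stands for both genes. Capitals mark 21 bases centred on the summit.
ZBTB37, chr1:173868130-173868429, plus strand: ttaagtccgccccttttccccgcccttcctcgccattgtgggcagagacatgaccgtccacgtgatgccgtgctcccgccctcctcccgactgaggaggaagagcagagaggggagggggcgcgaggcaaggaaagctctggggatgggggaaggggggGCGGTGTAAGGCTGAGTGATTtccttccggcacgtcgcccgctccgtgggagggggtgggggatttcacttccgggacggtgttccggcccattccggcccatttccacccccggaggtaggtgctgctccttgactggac
The annotated GAS5 promoter is at chr1:173868996-173869295 on the minus strand. Its longest run of C and T touching the 5 bases on either side of the start has 3 bases. Longer runs lie elsewhere in the sequence.
GAS5: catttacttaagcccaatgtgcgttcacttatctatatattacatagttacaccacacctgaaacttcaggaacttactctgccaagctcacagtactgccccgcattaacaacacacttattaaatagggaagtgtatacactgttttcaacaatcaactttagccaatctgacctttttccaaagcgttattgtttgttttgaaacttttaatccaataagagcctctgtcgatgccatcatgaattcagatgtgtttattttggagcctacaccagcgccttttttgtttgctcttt
Its GC content was 37.7%, the lowest of the 27, against 65.7% in the ZBTB37 window.

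ZFAS1, a host of 3 SNORD genes on chromosome 20, followed with 99.53 and 99.55, its summits 336 and 187 bp upstream of the start. SNHG31, which shares its start region with BARD1, had 99.0 in both repeats, and SNHG29 had 99.15 and 98.51. SNHG5 reached 93.42 and 96.27 and SNHG20 94.46 and 95.07. The first 4 genes did not overlap the next members in either repeat. Between SNHG5, SNHG20, SNHG19 and SNHG10, whose means lay between 93.47 and 94.84, the repeats overlapped and gave no order. SNHG1, host of the U22 group of snoRNAs, was in the middle of the order with 86.9 and 91.14. SNHG14 had 72.13 and 87.5. At the other end of those with both repeats, SNHG32 had 5.897 and 50.91.

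The place of the HNRNPU summit was nearly uniform. Of the 19 members with a known start and a summit in both repeats, 18 had the best one within 1000 bp of the start in both, the exception being SNHG14, at 127685 and 133052 bp downstream. At 14 of the 19 the summit lay upstream of the start in both repeats. For genes over 2000 bp with a summit, the best one lay upstream within 1000 bp at 12 of 16 and 12 of 18 members. Over all such genes this was so at 5781 of 14814 in the first repeat and 5763 of 14745 in the second. Among genes of over 2000 bp, the best HNRNPU summit was within 1000 bp of the start at 15 of 16 and 17 of 18 members in the 2 repeats, and at 63.1% of all genes in each. Among genes of 2001 to 10000 bp with summits in both repeats, it was so in both at 9 of 9 members and at 75.7% of all genes. When the 1000 bp on each side of the gene were left out, the number of members with a summit in both repeats fell from 22 to 7 of 31. The share of all genes fell from 44.2% to 28.3%, so members no longer stood above all genes. At 11 of 27 members with a known start another gene also started within 1000 bp, 10 times a protein-coding gene. These include RCC1 at SNHG3, BARD1 at SNHG31 and MATR3 at SNHG4, and how much of the signal belongs to them was not tested.

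**Figure D2:**
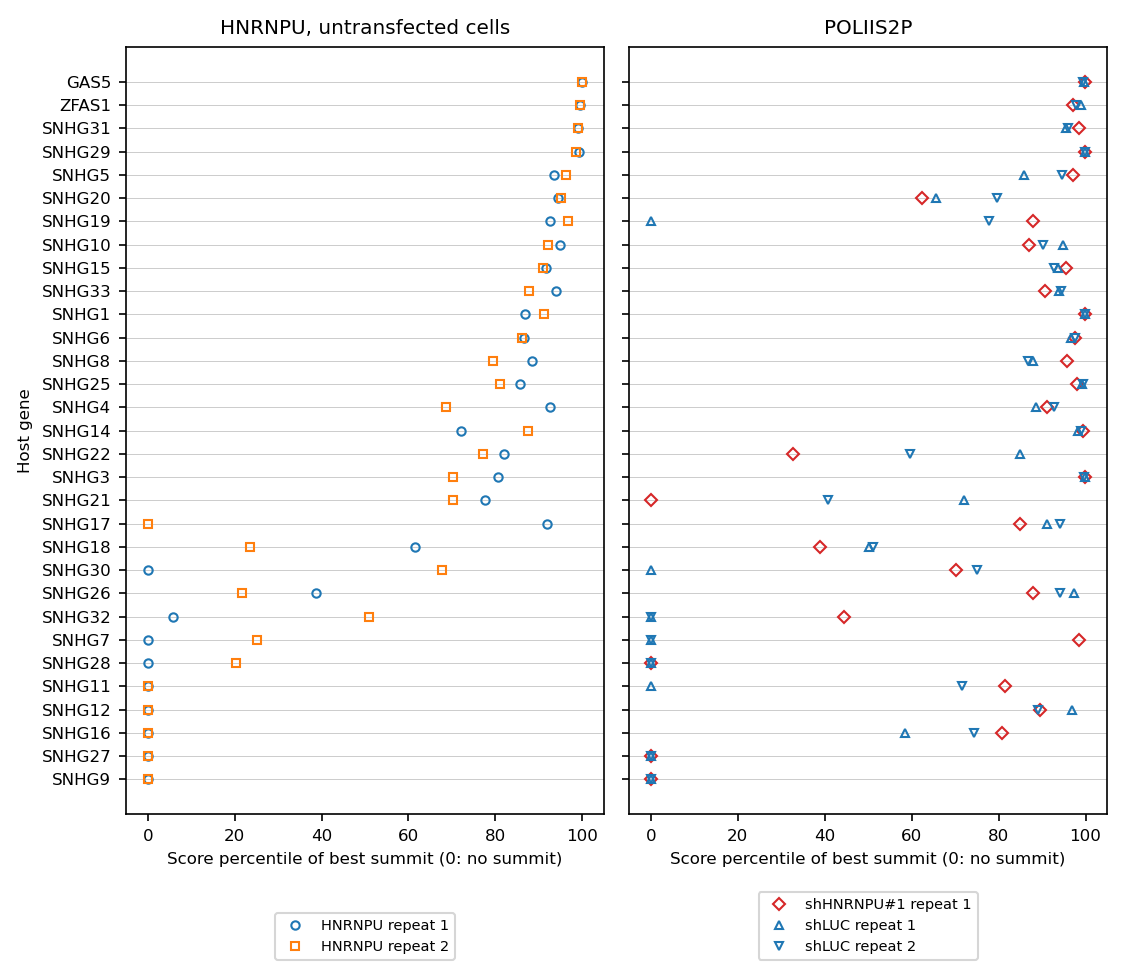
Score percentile of the best summit (horizontal axis, 0 for no summit) of each host gene (vertical axis, same order in both panels) in the 2 HNRNPU libraries on the left and, on the right, in the POLIIS2P libraries of shHNRNPU#1 cells (red) and shLUC cells (blue). Each point is 1 library. GAS5, ZFAS1, SNHG31 and SNHG29 are at or above 95.41 in every one of the 5, and SNHG12 and SNHG16 have POLIIS2P summits in all 3 libraries with none for HNRNPU.

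POLIIS2P summits in all 3 libraries were found at 22 of 31 members (71.0%), against 47.4% of all genes, 24.3% of other lncRNA genes and 68.3% of protein-coding genes. The best was in the top 10% in all 3 at 11 members (35.5%), against 14.5% of all genes and 23.3% of protein-coding genes. SNHG9, SNHG27 and SNHG28 had no POLIIS2P summit in any library. SNHG1 stood first with 99.92 after shHNRNPU#1 and with 99.94 and 99.86 after shLUC. SNHG29 had 99.83, 99.89 and 99.89, and SNHG3, host of 2 SNORA genes, had 99.83, 99.81 and 99.67. RCC1, which overlaps SNHG3 and is in the list of protein-coding hosts, had the same 3 values. SNHG29 overlapped SNHG1 and gave no order with it, while every SNHG1 value lay above every SNHG3 value. GAS5 had 99.77, 99.55 and 99.32, and ZFAS1 97.02, 99.02 and 97.82.

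Hosts with 2 or more snoRNA genes had a median POLIIS2P percentile of 92.54 (15 members), and hosts with 1 snoRNA gene 69.11 (15 members). For HNRNPU the same medians were 79.81 and 83.4. The 13 members with box C/D genes only had a median POLIIS2P percentile of 93.17 and the 10 with box H/ACA genes only 90.5, with ranges that overlapped from 14.8 to 99.77. No test was made of these medians.

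Unlike HNRNPU, the best POLIIS2P summit was often far from the start. Of 19 members with a known start and a POLIIS2P summit in all 3 libraries, 10 had the best one within 1000 bp of the start in each and 8 had it over 1000 bp downstream in each, while SNHG22 differed between libraries. The 8 were SNHG1, SNHG3, SNHG4, SNHG12, SNHG14, SNHG17, SNHG26 and SNHG29. HNRNPU had summits in both repeats at 6 of these, and at 5 of the 6 they were within 1000 bp of the start. In SNHG3 the best POLIIS2P summit lay 394 to 444 bp before the end of the gene, and in SNHG1 it lay 361 to 507 bp past the end. It was 326 to 439 bp past the end in SNHG12 and 708 to 711 bp past it in SNHG17. These places depend on where the window ends. In all 3 libraries a higher summit lay past its edge, by the gene end, at GAS5, ZFAS1, SNHG16, SNHG12 and SNHG17. It lay 373 bp outside at GAS5 (percentiles 99.89 to 99.92), 147 bp at ZFAS1 (98.16 to 99.65) and 914 to 1005 bp at SNHG16 (93.74 to 97.31). At SNHG12 it lay 30 to 76 bp outside (96.62 to 97.86) and at SNHG17 806 to 850 bp (98.35 to 99.0). A best summit far downstream was not confined to host genes. Among genes over 2000 bp, 42.1% to 55.0% of members with a summit had the best one over 1000 bp downstream of the start, and 47.0% to 49.2% of all genes did. Among genes of 2001 to 10000 bp with summits in all 3 libraries, it was so in each library at 4 of 9 members and at 28.5% of all genes.

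**Figure D3:**
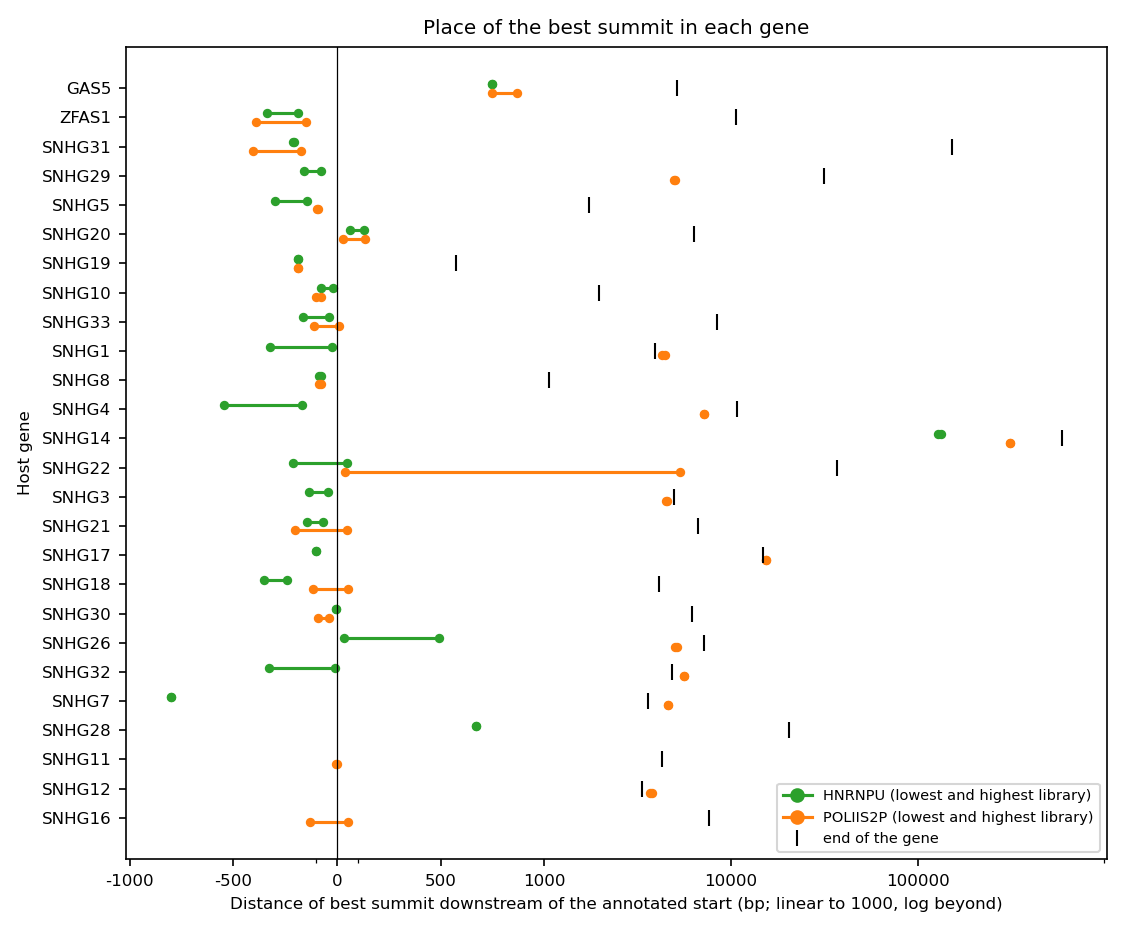
Distance of the best summit downstream of the annotated start (horizontal axis in bp, linear to 1000 and logarithmic beyond, negative for upstream) for each host gene with a known start (vertical axis). Points joined by a line are the lowest and the highest library for HNRNPU (green, 2 libraries) and POLIIS2P (orange, 3 libraries), and black ticks are gene ends. HNRNPU points cluster at the start in all genes but SNHG14, and POLIIS2P points lie by the gene end in SNHG1, SNHG3, SNHG12 and SNHG17.

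Within SNHG14, the longest member, POLIIS2P gave 69 summits with shHNRNPU#1 and 82 and 79 with shLUC, which is 0.1154 to 0.1372 per kb. They lay mostly between 100 and 300 kb from the start, with 21 to 24 in the stretch from 100 to 200 kb and 24 to 34 in that from 200 to 300 kb. The SNORD116 array of 30 genes, 56.9 kb at chr15:25051476-25108352, held 16 to 21 of them. The SNORD115 array of 48 genes, 99.1 kb at chr15:25170723-25269858, held 0 in each of the 3 libraries, and 0 in every library of the other antibodies. These arrays are repeated sequence, and how the authors treated reads that align to several places was not given in the sources used here. The best POLIIS2P summit was at base 25136319 in all 3 libraries, within PWAR1, a noncoding gene between the arrays. In the first 100 kb there were 5 to 16 H3K27ac and 7 to 21 H3K4me1 summits as titled, and 5 to 10 and 11 to 21 with the shLUC names exchanged. The last stretch held 1 to 10 H3K27ac and 2 to 10 H3K4me1 summits as titled, and 1 to 6 and 6 to 10 with names exchanged. HNRNPU gave only 8 and 4 summits over the whole gene. From 400 to 500 kb there were 0 or 1 POLIIS2P summits, and in the last stretch, where UBE3A reaches in from the other side, 9 to 14. The protein-coding genes SNRPN and SNURF also overlap SNHG14. How many of the POLIIS2P and HNRNPU summits belong to these genes rather than to the host was not tested.

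**Figure D4:**
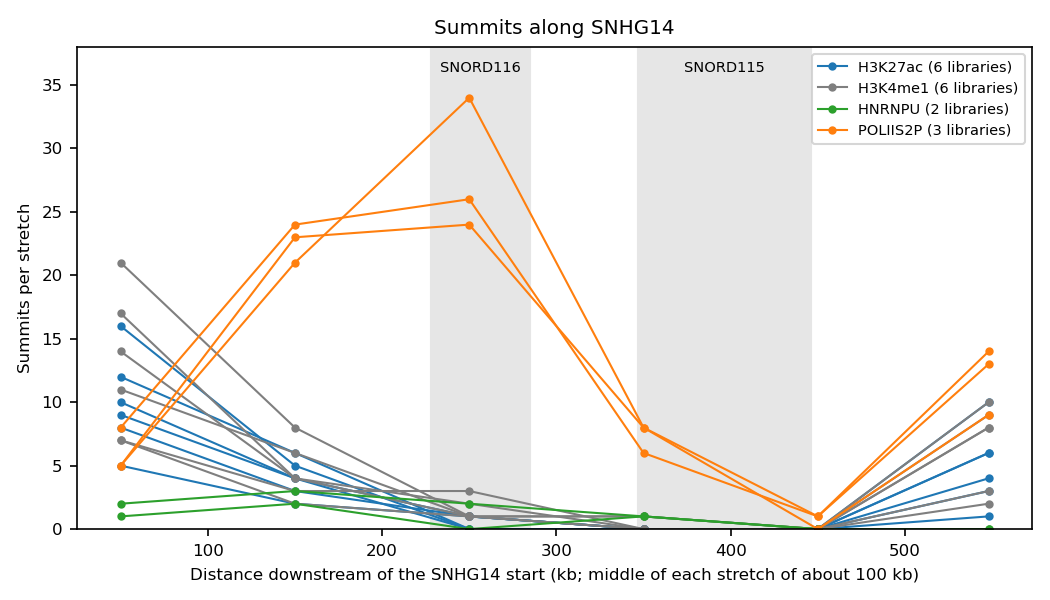
Number of summits (vertical axis) in successive stretches of about 100 kb along SNHG14, against the distance of the middle of the stretch from the gene's start in kb (horizontal axis). Each line is 1 library, coloured by antibody as titled, and grey bands are the SNORD116 and SNORD115 arrays. POLIIS2P lines reach 24 to 34 in the stretch with SNORD116, where no other antibody has more than 3.

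To ask whether POLIIS2P at host genes differed after HNRNPU knockdown, the single shHNRNPU#1 library was set against the 2 shLUC libraries. With 1 library there is no test, and a gene was called where it lay at least 10 percentile points outside both shLUC libraries. Called higher were 3 members, SNHG7, SNHG19 and SNHG32, against 9.49% of 22801 genes with a summit in any library. Called lower were 3, SNHG18, SNHG21 and SNHG22, against 11.9%. With 28 members that had a summit, both counts are close to the background. Over these 28 the median difference was 0.2115 points, and the median gap between the shLUC libraries 1.15 points. At GAS5, SNHG1, SNHG3 and SNHG29, the shHNRNPU#1 library was within 1 point of both shLUC libraries.

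SNHG7, a host of 2 SNORA genes, had 98.52 in shHNRNPU#1 cells and no summit in either shLUC library. Its shHNRNPU#1 summit lay 6 bp inside the edge of the window, however, and the shLUC libraries had summits at the 99.12th and 99.49th percentile 41 and 46 bp outside it. The call at SNHG7 thus rests on where the window ends. SNHG32 had 44.41 in shHNRNPU#1 cells and none in shLUC cells, where the nearest outside summits were 901 and 848 bp from the edge. SNHG19 had 87.94 against 0 and 77.87. Of those called lower, SNHG18 had 38.97 against 50.08 and 51.06, SNHG21 0 against 71.98 and 40.65, and SNHG22 32.76 against 85.0 and 59.53. At SNHG19, SNHG21 and SNHG22 the shLUC libraries differed from each other by more than the 10 points of the call.

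H3K4me1 marks enhancers and the flanks of promoters, and H3K27ac marks active promoters and enhancers. To ask whether these marks differed after knockdown, the rank of the best summit, as −log2 of its top fraction (its rank divided by the length of the list), was compared between 4 shHNRNPU and 2 shLUC libraries with limma over all genes with a summit in all 6. A difference of 1 means a top fraction 2 times smaller, nearer the head of the list. Which names the shLUC libraries carry decided the result at the members. Over the members, the libraries titled H3K4me1 shLUC lay a median of 19.7 to 27.95 points from H3K4me1 shHNRNPU libraries and 5.477 to 14.52 points from H3K27ac shHNRNPU libraries. Those titled H3K27ac shLUC lay 19.95 to 37.05 points from H3K27ac shHNRNPU libraries and 5.558 to 13.24 from H3K4me1 shHNRNPU libraries. Libraries of shHNRNPU cells lay 4.814 to 11.74 points from each other for H3K4me1 and 7.224 to 10.35 for H3K27ac.

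With names exchanged, none of 20 members tested passed an adjusted p of 0.05 (limma, Benjamini-Hochberg) for H3K4me1, and 2 had an unadjusted p under 0.05. Over all genes 1 of 23107 passed (0.00433%). For H3K27ac none of 20 members passed, 0 had an unadjusted p under 0.05, and 1 of 13061 genes passed (0.00766%). The median log2 difference over the members tested was -0.06 for H3K4me1, against -0.03 over all genes, and -0.39 for H3K27ac, against -0.36. In percentile points the median over the members was -0.25 for H3K4me1 and -1.64 for H3K27ac, each less than the SD of the library medians among shHNRNPU cells, 2.97 and 2.66. The SE of a member's log2 difference was 0.46 to 0.71 for H3K4me1 and 0.77 to 1.07 for H3K27ac. Differences under about 2 SE were not detectable at a single gene. With adjustment over all genes, differences of more than 2 SE could also fail to pass, so the lack of calls does not exclude them.

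GAS5 with names exchanged had H3K27ac percentiles of 98.63, 99.42, 98.9 and 98.79 in the shHNRNPU libraries and 97.0 and 99.67 in the others, a log2 difference of -0.03 with an interval from -1.80 to 1.73. SNHG1 had 98.4 to 99.46 and 99.42 and 99.4, a log2 difference of -0.56 with an interval from -2.12 to 1.00. Both genes held H3K27ac near the top of the list in all 6 libraries. ZFAS1 had H3K27ac of 79.79 to 87.47 against 70.73 and 92.48, and SNHG14 96.24 to 98.37 against 98.18 and 97.4. H3K4me1 was lower on its lists at GAS5, at 36.92 to 62.82 against 57.26 and 58.55, and at ZFAS1, at 15.1 to 39.49 against 31.43 and 61.25. The groups overlapped at each of these.

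The members with the largest differences under exchanged names did not pass the test. For H3K4me1, SNHG28 had 79.37, 73.19, 55.58 and 78.56 in shHNRNPU and 52.98 and 11.09 in the other libraries, a log2 difference of 1.26 with SE 0.51 and adjusted p = 0.679. SNHG18 had 39.68, 36.95, 61.0 and 73.39 against 73.63 and 84.65, a difference of -1.15 with SE 0.52 and adjusted p = 0.734. In neither did the groups overlap. For H3K27ac, SNHG25 had 56.36, 93.3, 65.41 and 95.71 against 87.82 and 72.82, a difference of 0.33 with SE 0.94 and adjusted p = 0.9805. SNHG29 had 94.0, 83.65, 87.67 and 96.24 against 96.94 and 97.26, a difference of -1.50 with SE 0.81 and adjusted p = 0.799. Members whose groups did not overlap were counted among those with a summit. For H3K4me1, 4 of 28 were higher (SNHG1, SNHG10, SNHG20 and SNHG28) and 1 lower (SNHG18), against 5.9% and 7.67% of genes. For H3K27ac 0 of 30 were higher and 2 lower (SNHG7 and SNHG29), against 1.72% and 10.3%. SNHG7 had no H3K27ac summit in the 4 shHNRNPU libraries and percentiles of 44.04 and 28.05 in the 2 others.

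As titled, 8 of 20 members tested passed for H3K4me1, 7 lower and 1 higher in shHNRNPU cells, against 50.7% of 15981 genes. For H3K27ac 7 of 17 passed, 6 higher and 1 lower, against 40.7% of 12565 genes. At GAS5, H3K4me1 was 62.19, 38.1, 36.92 and 62.82 in shHNRNPU libraries and 97.0 and 99.67 in shLUC libraries, a log2 difference of -5.61 with SE 0.72 and adjusted p = 6.05e-06. SNHG15 differed by -5.84 with SE 0.73 and adjusted p = 4.44e-06, and SNHG1 by -5.68 with SE 0.55 and adjusted p = 2.51e-07. In the other direction, SNHG28 differed by 1.50 with SE 0.57 and adjusted p = 0.0368. For H3K27ac the same 3 genes moved the opposite way. The log2 difference was 5.60 with SE 0.70 and adjusted p = 2.21e-05 at SNHG1, 5.37 with SE 0.68 and adjusted p = 2.66e-05 at GAS5, and 4.54 with SE 0.86 and adjusted p = 0.000735 at SNHG15. SNHG14 differed by -1.88 with SE 0.69 and adjusted p = 0.0394. Without either shLUC library, 3 of 19 members tested were called for H3K27ac, against 21.1% of genes. Groups did not overlap at 5 members higher and 14 lower of 29 with a summit for H3K4me1, against 38.9% and 19.6% of genes. For H3K27ac this was so at 9 higher and 4 lower of 30, against 12.7% and 44.6%. These differences as titled and the lack of calls after exchange come from the same libraries under other names.

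**Figure D5:**
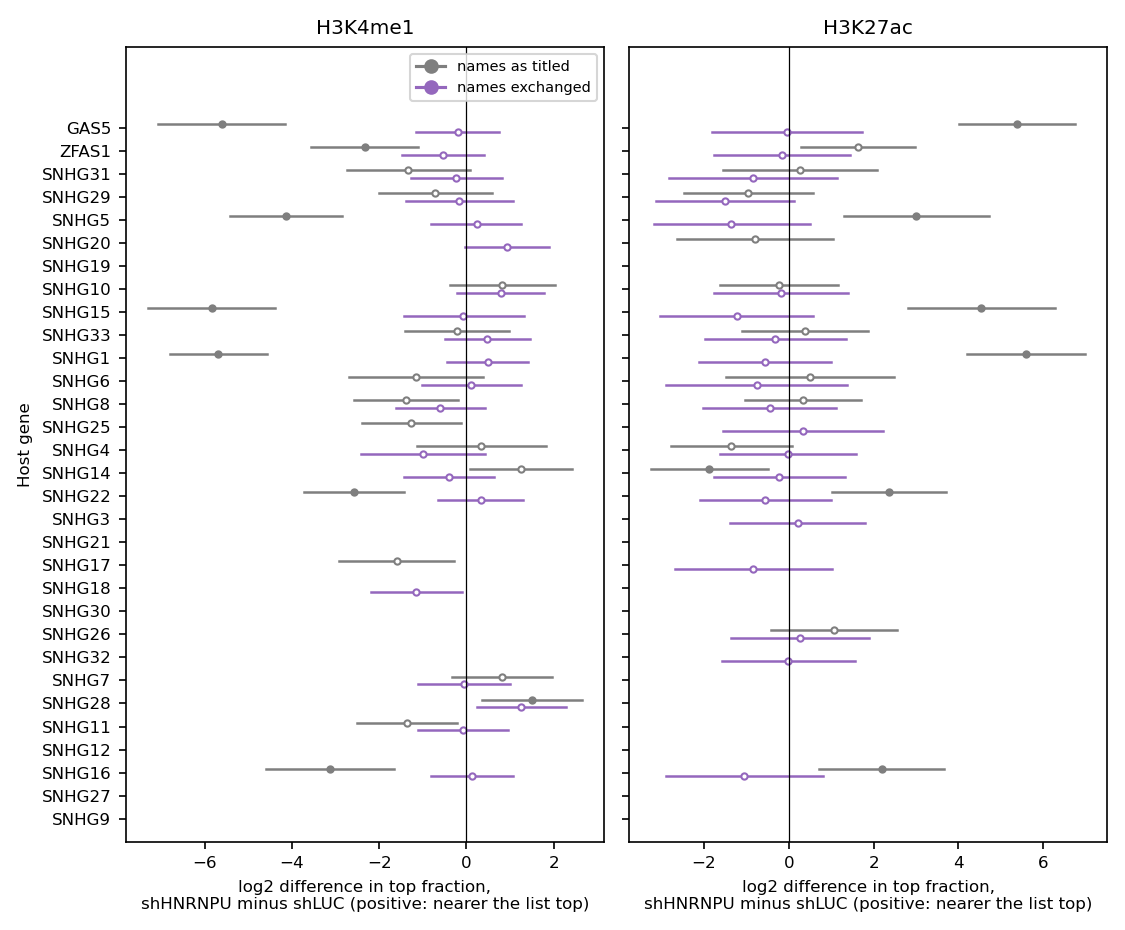
Log2 difference in the top fraction of the best summit, shHNRNPU minus shLUC, for H3K4me1 (left) and H3K27ac (right) at each host gene tested (vertical axis), with the names of the shLUC libraries as titled (grey) and exchanged (purple). Points are limma estimates, bars are 2 SE to each side, and filled points passed an adjusted p of 0.05. Filled points, at GAS5, SNHG1 and SNHG15 among others, occur only as titled, and no purple point is filled.

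Genes that act with the hosts were taken from fixed lists. Of 20 genes for the protein core and assembly of snoRNPs, the particles that snoRNAs form, 17 (85.0%) had HNRNPU summits in both repeats. NOLC1, a nucleolar chaperone of snoRNPs, had 98.87 and 98.51 and NHP2, a core protein of H/ACA particles, 90.1 and 91.6, while SNU13, which binds box C/D snoRNAs, had 40.82 and 4.928. NAF1, an H/ACA assembly factor, had no summit in the first repeat and 43.95 in the second. POLIIS2P summits in all 3 libraries were found at 19. Of 47 protein-coding snoRNA hosts, 38 (80.9%) had HNRNPU in both repeats, and 13 (27.7%) were in the top 10% in both. RPL27A, a ribosomal protein gene, had 99.65 and 99.8, and TPT1, which encodes a translationally controlled protein, 99.67 and 99.39, while 4 hosts, CWF19L1 and the elongation factor gene EEF2 among them, had none. These hosts had POLIIS2P in all 3 libraries at 43 (91.5%), and in the top 10% at 34 (72.3%). With names exchanged, 0 of the tested genes of either list passed for either histone mark. As titled, 19 of 26 protein-coding hosts were lower for H3K4me1 and 20 of 31 higher for H3K27ac, with 0 in the other direction for both. Of 15 snoRNP genes tested for each mark, 6 were lower and 1 higher for H3K4me1, and 5 were higher and 2 lower for H3K27ac. Over all genes, 3386 were lower and 4723 higher of 15981 for H3K4me1, and 2054 were higher and 3056 lower of 12565 for H3K27ac.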

How the data were processed

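CUT&Tag was done on 17 libraries of H1 cells, and groups and repeat numbers were taken from the sample titles. Per the labels' processing notes, the authors used cutadapt, Bowtie2, SAMtools, MACS2 and deepTools with the build hg38, without versions or settings. The deposited summit lists have a score that was taken to be the −log10 of a peak's significance, since its lowest value was 2.00 to 2.01 in the 12 histone lists and 1.30 to 1.31 in the 5 others. The deposited list of 48095 HNRNPU intervals of 400 bp has a score of 0 in every line and gave positions alone. Depth in reads was unknown, so no count test and no counting interval or floor was possible. The paper listed for the study describes other samples, and its methods were not used.

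The best summit was taken within each gene and 1000 bp on each side, from RefSeq genes of GRCh38.p14 (starts known for 27 of 31 members). limma 3.58.1 in R 4.3.3 was fitted across all genes with a summit in all 6 libraries, on −log2 of the top fraction, with Benjamini-Hochberg adjustment at 0.05, without a replicate block. POLIIS2P, with 1 shHNRNPU library, was called by size alone at 10 points. Python 3.11.15, pandas 2.3.3, numpy 2.4.6 and matplotlib 3.10.9 were used. The window search and the fit were tested on simulated data. Alternatives were flanks of 0 and 2000 bp, starts only, the 20000 highest-scoring summits, a score of at least 5, missing summits set to the bottom rank, each shRNA alone, a variance trend, a replicate block and leaving out each library.

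The members and lists were chosen with earlier results of these data known. Named with values were GAS5, ZFAS1, SNHG1 and SNHG14, the 6 members highest for HNRNPU, up to 3 members per direction past the threshold of each comparison or else the 1 with the largest difference per direction, the members called for POLIIS2P and, of the other lists, the 2 highest and 2 lowest for HNRNPU. Members named for the place of a summit, for a single repeat or for groups that did not overlap were chosen after their values were seen, as were the pyrimidine run, the comparison with genes of 2001 to 10000 bp and the search outside the window edge.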

Additional observations from a re-analysis of the deposited data

Results flagged for a closer look

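Of 61 groups of 4 shHNRNPU libraries examined, 7 held a library that stood far apart from the other 3. Chance gives about 1 in 20 groups (5%), but not where the other 3 libraries are equal, since any different value is then flagged. This was the case for the number of members with a summit and for SNHG32, SNHG27 and SNHG18. For H3K4me1, the second shHNRNPU#2 repeat had a summit at 27 members and the other 3 libraries at 25 each, and it placed SNHG15 at 97.8 where the others were at 85.3 to 87.01. The first shHNRNPU#2 repeat placed SNHG4 at 24.14, with the others at 85.13 to 90.97. The first shHNRNPU#1 repeat alone had an H3K4me1 summit at SNHG32, at 40.16. For H3K27ac, the second shHNRNPU#2 repeat alone had a summit at SNHG27, at 53.96, and the first shHNRNPU#2 repeat alone had one at SNHG18, at 2.883. The second shHNRNPU#1 repeat placed SNHG20 at 18.93, with the others at 83.64 to 95.33.

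At 2 members the shRNAs differed from shLUC in opposite directions in all libraries, and this was not tested. The same pattern was found at 3.53% of all genes for H3K4me1 with names exchanged, where 2 of 28 members with a summit had it, and at 2.23% for H3K27ac as titled, where 1 of 30 had it. For H3K4me1 with names exchanged, SNHG31 differed from shLUC by -12.24 points with shHNRNPU#1 and by 3.398 points with shHNRNPU#2, a difference of -15.64 points between the shRNAs. SNHG6 differed by -11.32 and 8.916, a difference of -20.24 points. For H3K27ac as titled, SNHG6 differed by -32.41 and 17.54, a difference of -49.95 points.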

How the results depend on the processing

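The results as titled moved most. With no flank, the 20000 highest-scoring summits and missing summits at the bottom rank, the members called were 5 of 9 tested, 1 of 2 and 13 of 29 for H3K4me1 (8 of 20 in the report), against 48.9%, 41.9% and 44.9% of genes. For H3K27ac they were 3 of 8, 1 of 3 and 11 of 30 (7 of 17 in the report), against 40.4%, 35.7% and 41.9%. Leaving out 1 library gave 7 to 12 of 20 to 22 tested for H3K4me1, against 42.4% to 47.3% of genes. The 12 of 22 came without the first shLUC library, against 42.4%. For H3K27ac it gave 3 to 7 of 17 to 20 tested, against 21.1% to 41.1% of genes. There, 3 of 19 were called without either shLUC library, against 21.1%. The median H3K4me1 difference over the members, -10.56 points, was 0 with no flank, -29.12 with the 20000 highest-scoring summits, -3.08 with a score of at least 5 and -17.66 with shHNRNPU#1 only, and -18.03 and -1.65 without the first and the second shLUC library. That for H3K27ac, 5.36 points, was 17.54 with shHNRNPU#2 only, 0 with shHNRNPU#1 only or no flank, 15.14 with the 20000 highest-scoring summits, -4.41 with a score of at least 5 and 0 to 12.42 without 1 library, 0 without the second shHNRNPU#2 repeat. With names exchanged, 0 members were called under every alternative run, and the median was 3.02 points for H3K4me1 with shHNRNPU#2 only and -5.17 for H3K27ac with shHNRNPU#1 only. The H3K27ac median ranged from -7.63 to 2.48 when 1 library was left out, the ends being those without the first and the second library titled H3K4me1 shLUC. The POLIIS2P calls, 6 of 31 members, stood against 21.4% of genes with a summit. They were 10 with the 20000 highest-scoring summits (30.2% of genes) and 11 at 5 points (32.2%). Without the first shLUC library they were 7 (39.4%), and without the second 10 (38.7%). HNRNPU summits in both repeats fell from 22 members to 7 with no flank, while the share of all genes fell from 44.2% to 28.3%. They were at 19 to 22 members under the other settings that needed both repeats, against 31.2% to 46.0% of genes. Without the first repeat 25 members had a summit (51.0% of genes), and without the second 23 (51.2%). The series-wide interval list gave 26 (57.9%). The cause of these changes was not tested.

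Over all genes, calls as titled ranged from 1477 to 14079 for H3K4me1 (8109 in the report) and from 1147 to 13016 for H3K27ac (5110 in the report), both ends being the 20000 highest-scoring summits and the bottom rank. With names exchanged they were 0 to 7 for H3K4me1 and 0 to 3 for H3K27ac (1 each in the report). POLIIS2P calls were 7334 at 5 points and 8565 and 8580 without 1 shLUC library (4886 in the report), and HNRNPU summits in both repeats 10844 with no flank (16944 in the report).

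Samples share only a repeat number: deviations of same-numbered libraries correlated at -0.027 to 0.028. With a replicate block the members called were 10 and 6 as titled, for H3K4me1 and H3K27ac, and 0 and 0 with names exchanged.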
